A study of Mus musculus with 12 samples.

Results

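Glucocorticoid receptor target genes were followed across resting and exercised mouse calf muscle. The set held 10 genes, Fkbp5, Tsc22d3, Sgk1, Ddit4, Zbtb16, Cebpb, Cebpd, Nr3c1, Pik3r1 and Glul, taken by name and matched by Ensembl identifier among the 43432 rows of the count table. All 10 passed the filter on low counts, which left 14486 genes. Expression had been measured by RNA sequencing of gastrocnemius muscle from male mice, with 3 libraries in each of 4 groups: sedentary WT (replicates 1, 3 and 4), sedentary MKO (1, 2 and 3), exercised WT (3, 4 and 5) and exercised MKO (1, 2 and 4). WT animals were fl/fl, that is, they carried the floxed allele without its muscle deletion, and MKO animals were their cFeimin MKO littermates, in which the gene for the muscle protein Feimin is deleted in muscle. Exercised animals had run for 90 min at a constant speed set relative to their maximum, and sedentary animals had not run. The sources used here do not give the animals' age and strain, the promoter that drives the muscle deletion, whether each library is 1 animal, the hour of sampling or the delay between the run and sampling. The hour of sampling and the run therefore cannot be told apart in any value below. Since the libraries may be technical repeats, the p-values cover their spread alone.

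Glucocorticoids, the steroid hormones of the adrenal cortex, are released in a daily rhythm and during stress, fasting and exercise. They bind the glucocorticoid receptor, encoded by Nr3c1, which leaves its heat-shock protein chaperones, enters the nucleus and activates genes that carry glucocorticoid response elements. In skeletal muscle this programme is known for lowering growth and insulin signals, releasing amino acids for the liver and raising glutamine synthesis. Most of the genes described here are also driven by other signals: Ddit4 by low oxygen and energy stress, Cebpb by cAMP, Cebpd by inflammation and Sgk1 by osmotic stress.

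The promoters of Nr3c1, Zbtb16 and Cebpd were not part of the search below. For the other 7 of the 10 genes, RefSeq sequence (GRCm38.p6) was used as 15 windows of the 250 bases before an annotated start. They were searched on both strands for the full response element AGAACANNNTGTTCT, which is its own reverse complement and so holds the half-site AGAACA once on each strand, for that half-site alone, for the core of the cAMP response element, TGACG, and for the full cAMP response element TGACGTCA, which holds the core on both strands. The 3 windows shown are those of the gene with a full element, a half-site window of Tsc22d3, a widely used readout of the receptor, and the gene with the most cAMP cores. Each is written 5′ to 3′ in the direction of transcription with the half-sites and cores in capitals, and annotated exon bases are left out.
Sgk1, chr10:21993640-21993889, plus strand: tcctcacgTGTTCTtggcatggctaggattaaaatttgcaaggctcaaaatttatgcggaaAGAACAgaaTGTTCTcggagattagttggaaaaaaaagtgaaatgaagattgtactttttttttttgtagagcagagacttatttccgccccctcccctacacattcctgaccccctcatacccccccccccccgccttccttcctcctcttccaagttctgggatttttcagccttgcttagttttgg
Tsc22d3, chrX:140600660-140600772, minus strand: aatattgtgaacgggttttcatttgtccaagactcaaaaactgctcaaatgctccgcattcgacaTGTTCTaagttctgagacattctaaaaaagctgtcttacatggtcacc
Cebpb, chr2:167688665-167688914, plus strand: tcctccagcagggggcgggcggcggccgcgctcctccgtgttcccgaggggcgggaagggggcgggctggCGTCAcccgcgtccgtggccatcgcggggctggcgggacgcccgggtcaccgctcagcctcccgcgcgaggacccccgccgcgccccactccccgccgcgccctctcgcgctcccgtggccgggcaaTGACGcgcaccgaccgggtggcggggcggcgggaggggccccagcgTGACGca
The Sgk1 window, upstream of 1 of its 6 searched starts, held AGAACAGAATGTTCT at chr10:21993701-21993715, at -189 to -175 relative to that start. The full element occurred in 3 of the 32851 RefSeq windows searched (0.00913%), whereas the half-site alone occurred in 16.1% of them and the cAMP core in 17.8%. Cebpb had 3 cAMP cores, at -180, -53 and -7 relative to its start. None of the 15 member windows searched held the full TGACGTCA, which was present in 1.55% of all windows. The windows of Ddit4, Fkbp5 and Glul held none of these letters. A match or its absence describes only the letters of these windows.

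The libraries held 14324010 to 14563501 counts each, so depth hardly differed between them. Counts of B230219D22Rik, taken from general knowledge as the gene encoding Feimin, were 293 to 405 in WT libraries and 49 to 92 in MKO libraries, in the order the labels give. Skeletal muscle fibre markers summed to 95137 to 139149 CPM (counts scaled to a common library size) in every library, while neutrophil markers summed to 0 to 1.87 CPM, with S100a8 and Ly6g at 0 in every library, and T cell markers to 0 to 0.274 CPM. After running, 4 of 8 fibro-adipogenic markers fell in each genotype, and their sum went from 486 to 656 CPM in sedentary libraries to 294 to 440.4 CPM in exercised ones. Of 10 endothelial markers 2 fell and 1 rose in WT, and 3 fell and 1 rose in MKO muscle, while of 10 macrophage markers 2 fell in WT and 1 fell and 1 rose in MKO muscle. In the average of both genotypes 7 endothelial markers fell and 2 rose, and 4 macrophage markers fell and 1 rose. In that average 7 fibro-adipogenic and 4 of 6 red blood cell markers fell. Of all tested genes 7.4% fell and 6.16% rose there. The part of these shifts in the results below was not tested, and in bulk tissue fewer cells of a type and less RNA per cell cannot be told apart. Libraries stood apart in different ways. Over all tested genes, exercised WT replicate 5 was the highest exercised library for 28.02% and the lowest for 29.1%. Exercised MKO replicate 4 was nearly as extreme, at 25.99% and 26.7%. Among the sedentary libraries MKO replicate 3 was the most extreme, at 24.1% and 22.7%. By this measure sedentary WT replicate 1 was not unusual, at 14.2% and 15.5%. Sedentary WT replicate 1 was high in many of the members and is described separately, with the running result of each member in WT muscle given with and without it. Exercised WT replicate 5 read long genes higher: its log2 ratio to the other exercised WT libraries had a median of -0.19 over the tertile of genes with the shortest exon length and 0.17 over the tertile with the longest, which began at 5545 bases.

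Levels differed widely between the members. Per kilobase of exon, Glul was the highest in every group, at 133 and 135 CPM per kb in sedentary WT and MKO and at 152 and 131 CPM per kb in exercised WT and MKO, and Pik3r1 was the lowest, with group means of 1.29 to 1.57 CPM per kb. The order between them shifted with state. Ddit4 stood at 47.8 and 30.9 CPM per kb in sedentary WT and MKO and at 112 and 102 CPM per kb in exercised WT and MKO, which placed it directly below Glul after running. Cebpd had 25.7 and 23.6 CPM per kb in the sedentary groups and 7.38 and 14.2 in the exercised ones. In the sedentary WT group the neighbouring means of Ddit4 and Sgk1 (46.6 CPM per kb) lay well inside the spread of Ddit4. Every member count was at least 98 in every library.

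**Figure D1:**
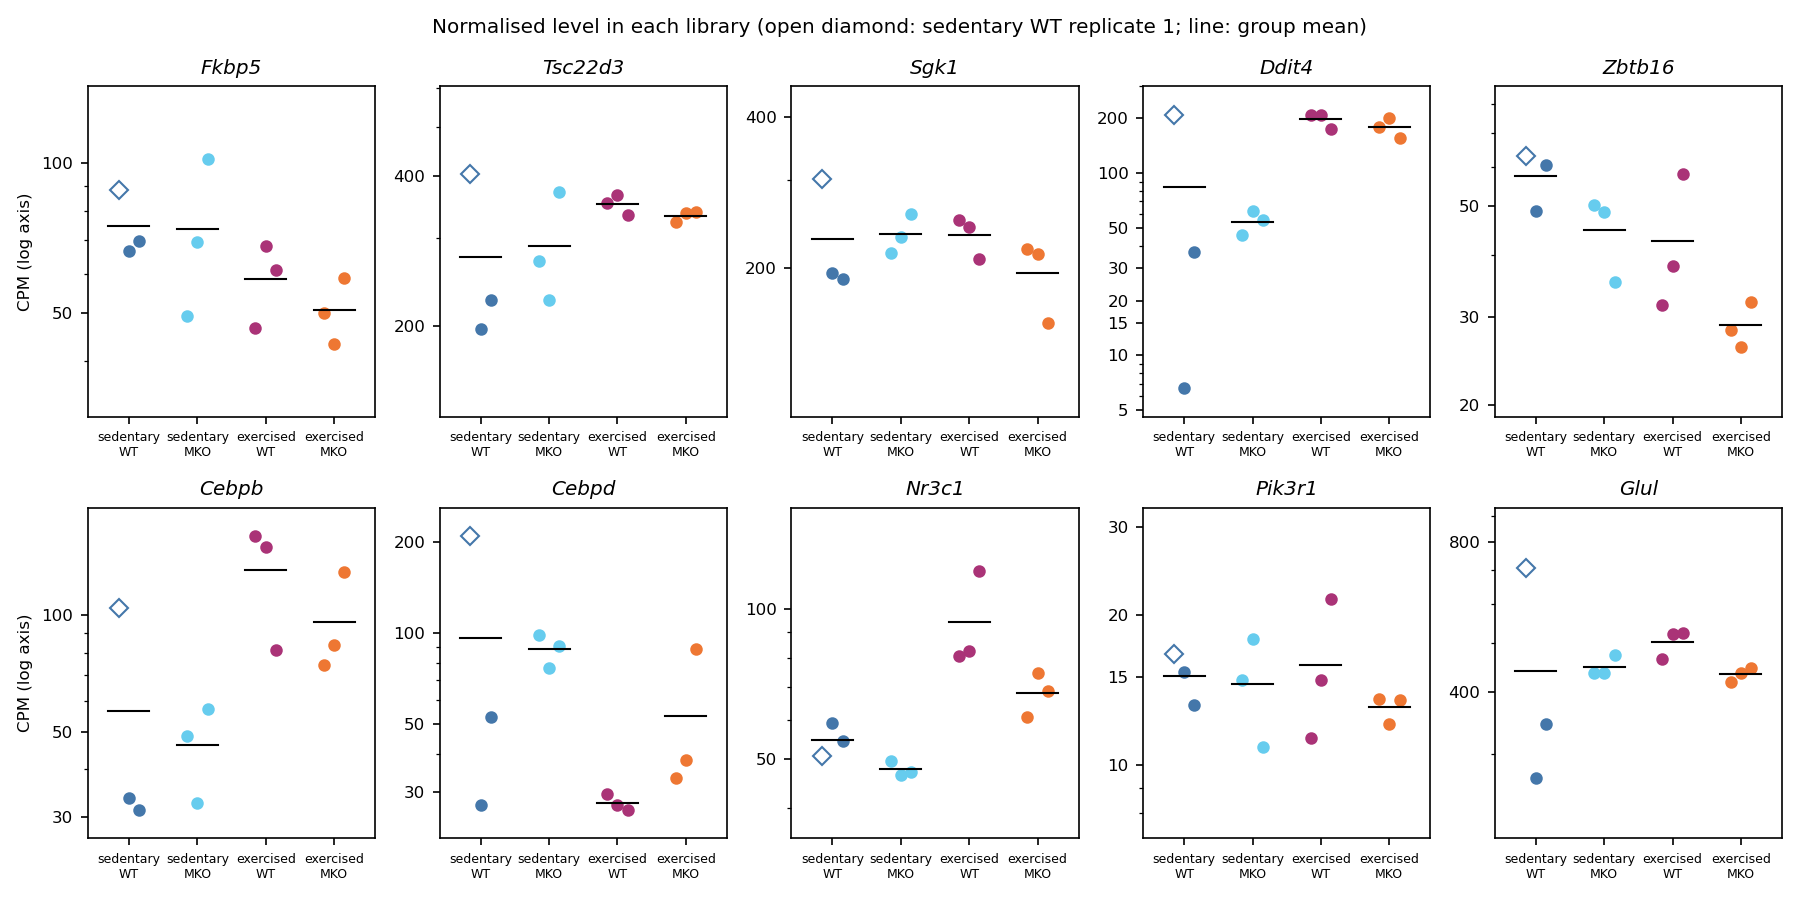
Normalised level (CPM, log axis) of the 10 members in each of the 12 libraries, with a point per library and a line at each group mean; the open diamond is sedentary WT replicate 1. The diamond is the highest of the 6 sedentary points for 7 members, and the exercised points of Ddit4, Tsc22d3 and Glul lie close together.

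The first question was how the receptor and its targets changed with running. In WT muscle the receptor gene itself rose, by 0.78 on the log2 scale (1.72-fold), and it was the 1 member of 10 that passed an adjusted p of 0.05, beside 8.24% of all tested genes. No member passed in MKO muscle, where 4.05% of all genes did. The members did not move as a block: 7 of 10 estimates were positive in WT muscle, with a median log2 change of 0.13, and 4 of 10 in MKO muscle, with a median of -0.10, while the median over all tested genes was -0.01 and 0.00. With sedentary WT replicate 1 left out, 5 members rose in WT muscle, Nr3c1, Ddit4, Cebpb, Glul and Tsc22d3, where 3.28% of all genes did, and their adjusted p-values (edgeR's quasi-likelihood test with Benjamini-Hochberg adjustment, as throughout) ranged from 0.00536 to 0.0365. By separation of the groups, 1 member (Nr3c1) was higher in every exercised WT library than in any sedentary one, as were 12.5% of all genes, and 6 were without that library, beside 15.4%. In MKO muscle 3 members were, Nr3c1, Cebpb and Ddit4, beside 10.1%. Sedentary WT replicate 1 was singled out by the levels of these same genes, so the calls without it are an alternative view of the data and no independent support.

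Nr3c1 (chr18:39410545-39519421, minus strand) encodes the glucocorticoid receptor, which in many tissues lowers its own transcript when hormone is high. In sedentary WT libraries its level was 50.7, 59.2 and 54.5 CPM, and in exercised WT libraries 80.4, 82.4 and 119 CPM. In sedentary MKO libraries it was 49.8, 46.5 and 47.2 CPM, against 60.9, 74.5 and 68.6 CPM after running. Every exercised library was above every sedentary one in both genotypes, a pattern that 3.75% of all tested genes showed. The log2 change was 0.78 ± 0.14 (SE; adjusted p = 0.00571) in WT and 0.51 ± 0.14 (adjusted p = 0.0839) in MKO muscle, and their difference was -0.27 ± 0.20 (adjusted p = 0.983). Its exons span 7684 bases, within the longest tertile, and exercised WT replicate 5 had its highest level. Without that library the WT change was 0.57 and still passed (adjusted p = 0.00775). Without sedentary WT replicate 1 it was 0.73 ± 0.17 (adjusted p = 0.0272). The rise in WT muscle also passed without any other single library and in every other setting tried.

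By the mean absolute log2 difference of their centred levels over the 12 libraries, the 3 genes most like Nr3c1 among 13043 candidates were Gm11847 (0.10), the RNA helicase gene Ddx3x (0.10) and G3bp2 (0.10), which encodes a stress granule protein. Ddx3x had mean levels of 89.4 and 75.9 CPM in sedentary WT and MKO and of 135 and 98.9 CPM in exercised WT and MKO libraries. The likeness is a description of level only.

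Cebpb and Cebpd encode C/EBP transcription factors, paired regulators of stress, inflammatory and adipogenic genes. With running their estimates had opposite signs. Cebpb (chr2:167688915-167690418, plus strand) was at 104, 33.6 and 31.4 CPM in sedentary WT libraries and at 160.3, 151 and 81.3 CPM in exercised ones. In MKO libraries it was at 48.7, 32.7 and 57.2 CPM at rest and at 74.3, 84.0 and 129.6 CPM after running. Apart from sedentary WT replicate 1, every exercised library was above every sedentary one. The log2 change was 1.21 ± 0.44 (adjusted p = 0.127) in WT, 2.01 ± 0.35 (adjusted p = 0.00634) in WT without that library, and 1.05 ± 0.44 (adjusted p = 0.276) in MKO muscle. Cebpb shares 312 exon bases with Tmem189 on the opposite strand, which had 157 to 324 counts, and the sources used here do not say if reads were counted by strand.

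Cebpd (chr16:15887286-15891031, plus strand) was at 209, 27.2 and 52.8 CPM in sedentary WT libraries and at 29.5, 27.2 and 26.2 CPM in exercised ones. In MKO libraries it was at 98.6, 76.5 and 90.5 CPM at rest and at 33.2, 38.2 and 88.7 CPM after running. The groups overlapped in both genotypes, through sedentary WT replicate 3 and exercised MKO replicate 4. For Cebpd the log2 change was -1.80 ± 0.61 (adjusted p = 0.0998) in WT and -0.73 ± 0.59 (adjusted p = 0.643) in MKO muscle. A single library decided the WT value: it was -0.53 ± 0.38 (adjusted p = 0.554) without sedentary WT replicate 1 and -2.24 (adjusted p = 0.0284) without sedentary WT replicate 3. Cebpd shares 562 exon bases with Spidr on the opposite strand, which had 8 to 33 counts.

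Zbtb16 encodes PLZF, a zinc-finger repressor that is among the most hormone-responsive transcripts in many human cells. This gene (chr9:48654297-48836222, minus strand) was at 63.0, 48.9 and 60.4 CPM in sedentary WT libraries and at 31.7, 38.0 and 58.0 CPM in exercised ones. In MKO libraries it was at 50.3, 48.8 and 35.2 CPM at rest and at 28.3, 26.2 and 32.1 CPM after running. In MKO muscle every exercised library was below every sedentary one, as for 11.6% of all genes. The log2 change was -0.43 ± 0.21 (adjusted p = 0.263) in WT and -0.63 ± 0.21 (adjusted p = 0.143) in MKO muscle. Without sedentary WT replicate 1 the WT value was -0.36 ± 0.24 (adjusted p = 0.505). In WT muscle it passed without exercised WT replicate 5 (-0.72, adjusted p = 0.0379), and in MKO muscle with libraries scaled by total counts alone (-0.77, adjusted p = 0.0393).

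Fkbp5, Tsc22d3 and Sgk1 are among the transcripts most used as readouts of the receptor. Fkbp5 encodes FKBP51, a chaperone partner that lowers hormone binding and so closes a feedback loop on the receptor. Its level (chr17:28399094-28517527, minus strand) was 88.2, 66.6 and 69.8 CPM in sedentary WT, 49.4, 69.5 and 102 CPM in sedentary MKO, 46.6, 68.2 and 61.1 CPM in exercised WT and 50.1, 43.3 and 58.7 CPM in exercised MKO libraries. The groups overlapped in both genotypes. The log2 estimate was -0.35 ± 0.24 (adjusted p = 0.447) in WT and -0.54 ± 0.24 (adjusted p = 0.305) in MKO muscle. It was -0.22 ± 0.26 (adjusted p = 0.762) in WT without sedentary WT replicate 1, so none of these fits gave a call.

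Tsc22d3 encodes GILZ, a leucine-zipper protein that mediates part of the anti-inflammatory action of glucocorticoids. Its level (chrX:140539528-140600659, minus strand) was 404, 197 and 225 CPM in sedentary WT, 269.8, 225 and 371 CPM in sedentary MKO, 353, 365 and 333 CPM in exercised WT and 323, 337 and 338 CPM in exercised MKO libraries. The 6 exercised libraries lay within 323 to 365 CPM, whereas the sedentary ones spanned 197 to 404 CPM. The log2 change was 0.35 ± 0.24 (adjusted p = 0.466) in WT, 0.73 ± 0.18 (adjusted p = 0.0365) in WT without sedentary WT replicate 1, and 0.20 ± 0.24 (adjusted p = 0.782) in MKO muscle.

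Sgk1, the gene with the full response element shown above, encodes a kinase that acts on ion channels and, like AKT, on FOXO factors. Its level (chr10:21882184-21999903, plus strand) was 300.1, 195 and 189.9 CPM in sedentary WT, 214, 231 and 256 CPM in sedentary MKO, 249, 241 and 208 CPM in exercised WT and 218, 213 and 155 CPM in exercised MKO libraries. The groups overlapped in both genotypes. On the log2 scale the difference was 0.03 ± 0.18 (adjusted p = 0.957) in WT, 0.27 ± 0.16 (adjusted p = 0.427) in WT without sedentary WT replicate 1, and -0.26 ± 0.18 (adjusted p = 0.587) in MKO muscle.

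Ddit4 and Pik3r1 act on growth and insulin signalling. Ddit4 encodes REDD1, an inhibitor of the growth kinase complex mTORC1. Its level (chr10:59949669-59951834, minus strand) was 208, 6.61 and 37.0 CPM in sedentary WT libraries, the widest spread of any member in any group on the log2 scale (SD 2.49), and 208, 209 and 174 CPM in exercised ones. In MKO libraries it was 45.6, 61.6 and 55.6 CPM at rest and 179.5, 200.4 and 155 CPM after running. Sedentary WT replicate 1 stood at the level of the exercised libraries, and the other 5 sedentary libraries were all below every exercised one. Its log2 change was 1.23 ± 0.77 (adjusted p = 0.406) in WT, 3.18 ± 0.53 (adjusted p = 0.00536) in WT without that library, and 1.72 ± 0.78 (adjusted p = 0.324) in MKO muscle. Its error in MKO muscle was set by the spread shared over all groups: fitted with the sedentary and exercised MKO libraries alone, the same change had an adjusted p of 0.0049.

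Pik3r1 encodes the p85α, p55α and p50α regulatory subunits of PI3 kinase, which free p85α can blunt. Its level (chr13:101680563-101768217, minus strand) ran from 10.9 to 21.5 CPM over all 12 libraries, and all groups overlapped. Its log2 change was 0.07 ± 0.22 (adjusted p = 0.903) in WT, 0.15 ± 0.25 (adjusted p = 0.841) in WT without sedentary WT replicate 1, and -0.15 ± 0.22 (adjusted p = 0.836) in MKO muscle.

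Glul encodes glutamine synthetase, through which muscle exports nitrogen as glutamine. Its level (chr1:153899944-153909723, plus strand) was 709.6, 269 and 345 CPM in sedentary WT, 436, 437 and 475 CPM in sedentary MKO, 466, 523 and 524 CPM in exercised WT and 419, 437 and 446 CPM in exercised MKO libraries. Sedentary WT replicate 1 was above all exercised libraries, and the other sedentary WT libraries were below them all. For Glul the log2 change was 0.19 ± 0.27 (adjusted p = 0.754) in WT, 0.72 ± 0.13 (adjusted p = 0.00677) in WT without that library, and -0.05 ± 0.27 (adjusted p = 0.971) in MKO muscle. Glul shares 116 exon bases with Teddm2 on the opposite strand and 93 with Mir8114 on the same strand, which had 34 to 74 and 1 to 5 counts.

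**Figure D2:**
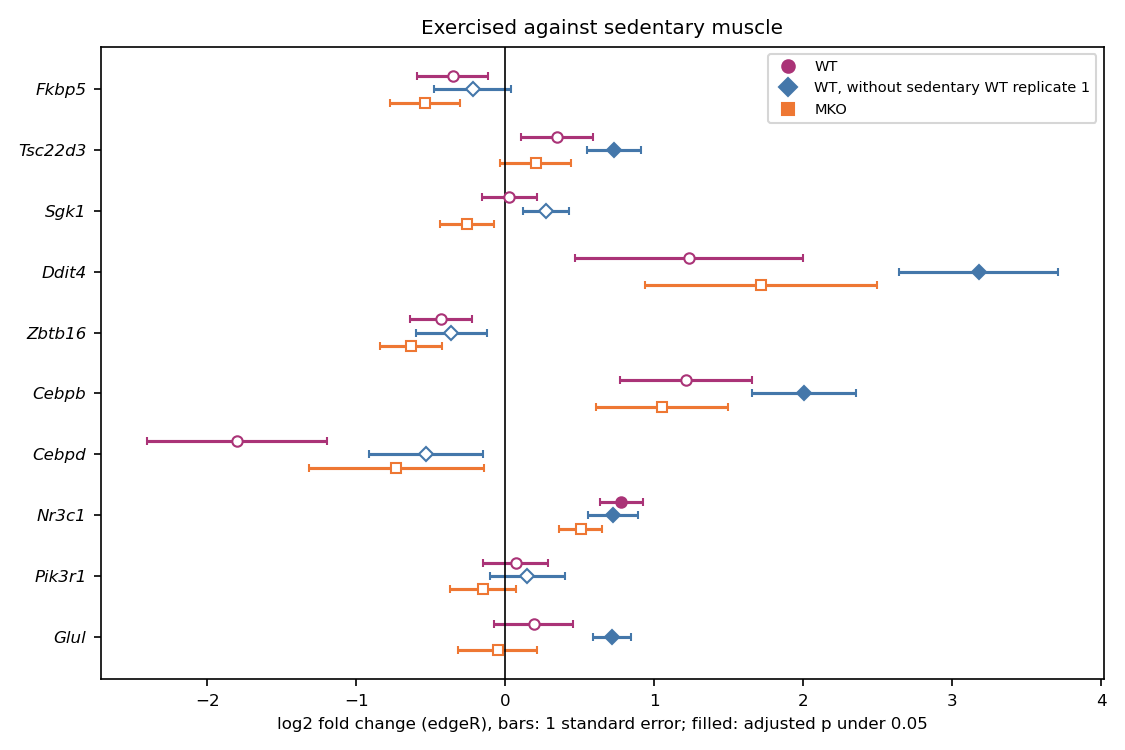
Log2 fold change of each member between exercised and sedentary muscle in WT (circles), in WT without sedentary WT replicate 1 (diamonds) and in MKO (squares), with bars of 1 standard error; filled markers have an adjusted p under 0.05. Nr3c1 is the 1 filled circle, 5 diamonds are filled, and no square is filled.

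Averaged over both genotypes, a comparison added after the data were seen, running changed 3 members, where 13.6% of all genes passed. Nr3c1 rose by 0.64 ± 0.10 (adjusted p = 0.00126) and Cebpb by 1.13 ± 0.31 (adjusted p = 0.0318), while Zbtb16 changed by -0.53 ± 0.15 (adjusted p = 0.0331). Cebpd (-1.26 ± 0.42, adjusted p = 0.0723), Ddit4 (1.48 ± 0.55, adjusted p = 0.106) and Fkbp5 (-0.45 ± 0.17, adjusted p = 0.110) did not pass. Nr3c1 passed whichever single library was left out. Without sedentary WT replicate 1 the members passing were 5: Nr3c1, Cebpb, Ddit4 (2.45, adjusted p = 0.0008145), Tsc22d3 (0.47, adjusted p = 0.0271) and Glul (0.33, adjusted p = 0.0245). The library left out was singled out by the levels of these same genes, so these calls are no independent support. The 13.6% belongs to the fit with all libraries, and the share of all genes in fits without 1 library is not given here. Ddit4 also passed without sedentary WT replicate 3 (1.20, adjusted p = 0.0457), Cebpd without that library (-1.49, adjusted p = 0.0171) or without exercised MKO replicate 4 (-1.55, adjusted p = 0.0402), and Fkbp5 without sedentary MKO replicate 1 (-0.56, adjusted p = 0.0278). Zbtb16 kept it only without sedentary WT replicate 3, sedentary MKO replicate 3, exercised WT replicate 5 or exercised MKO replicate 4, and its adjusted p reached 0.09085 otherwise. Cebpb kept it only without sedentary WT replicate 1, sedentary MKO replicate 3, exercised WT replicate 5 or exercised MKO replicate 1, and its adjusted p reached 0.0779 otherwise.

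The next question was whether loss of Feimin from muscle changed these genes. No member passed in either state, and the comparison of all genes gave few calls: 1 gene at rest (0.0069%) and 5 after running (0.0345%). The count of genes after running was far higher with DESeq2 and without some single libraries, as given in the last section. Without adjustment, a p under 0.05 was reached by 545 genes and 0 members at rest, and by 2319 genes and 2 members after running. Averaged over both states no member passed either, beside 2 genes (0.0138%), and Nr3c1 was nearest, at -0.33 ± 0.10 (adjusted p = 0.192).

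At rest, Nr3c1 was the 1 member whose MKO libraries (46.5 to 49.8 CPM) were all below the WT ones (50.7 to 59.2 CPM), as for 4.91% of genes, with a log2 change of -0.20 ± 0.14 (adjusted p = 1). For the other members the groups overlapped. Several fold changes there rested on sedentary WT replicate 1, while that of Zbtb16 moved little (-0.36 with and -0.29 without it). Ddit4 was -0.63 ± 0.76 with it and 1.32 ± 0.49 without it, Cebpd -0.12 ± 0.58 and 1.15 ± 0.39, and Glul 0.03 ± 0.27 and 0.55 ± 0.13, all with an adjusted p of 1. Without it 3 genes passed at rest (0.0203%), none of them a member. Without that library the sedentary MKO libraries were all above the WT ones for 4 members, Sgk1, Ddit4, Cebpd and Glul, as for 10.4% of all genes.

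After running, 9 of 10 estimates were negative in MKO against WT muscle, with a median log2 change of -0.23, beside a median of 0.01 over all genes. Nr3c1 had the smallest p: its MKO libraries (60.9 to 74.5 CPM) were all below the WT ones (80.4 to 119 CPM), the log2 change was -0.47 ± 0.14, and the adjusted p was 0.211. Zbtb16 followed with -0.56 ± 0.21 (adjusted p = 0.244), and its groups touched, since exercised MKO replicate 4 (32.1 CPM) was above exercised WT replicate 3 (31.7 CPM). Exercised WT replicate 5 raised the WT side for Zbtb16, at 58.0 CPM against 31.7 and 38.0 CPM in the other exercised WT libraries. It also did so for Pik3r1, at 21.5 CPM. The other exercised WT libraries, at 11.3 and 14.8 CPM, lay on either side of all exercised MKO libraries. For Nr3c1 those other libraries (80.4 and 82.4 CPM) were still above the MKO ones. Genotype estimates without exercised WT replicate 5 are not given here. Glul was lower in every MKO library (419 to 446 CPM) than in any WT library (466 to 524 CPM), with a log2 change of -0.21 and an adjusted p of 0.710. Such separation downwards was seen for 12% of all genes. Cebpd was the exception in sign, at 0.95 ± 0.60 (adjusted p = 0.446), and its MKO libraries were all above the WT ones, as for 11.1% of genes. Macrophage markers moved with genotype in the direction that Cebpd had after running, while the estimate of Cebpd at rest was -0.12. All 10 had higher estimates in MKO muscle, with a median log2 change of 0.58 at rest and 1.09 after running, although none passed. Their sums were 75.9 to 108 CPM in sedentary WT against 118 to 162 CPM in sedentary MKO libraries, and 49.1 to 61.2 CPM against 65.9 to 153 CPM after running. Macrophage markers were not alone: estimates were also higher in MKO muscle for all 8 fibro-adipogenic and all 6 red blood cell markers in both states. Of 7 Schwann markers 7 were higher at rest and 6 after running. For endothelial markers it was 3 and 4 of 10, for mural ones 2 and 4 of 8, and for muscle fibre ones 2 and 3 of 7. For satellite cell markers it was 5 and 2 of 6, and for adipocyte ones 2 and 0 of 4. The part of these markers in the genotype values of Cebpd and the other members was not tested.

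**Figure D3:**
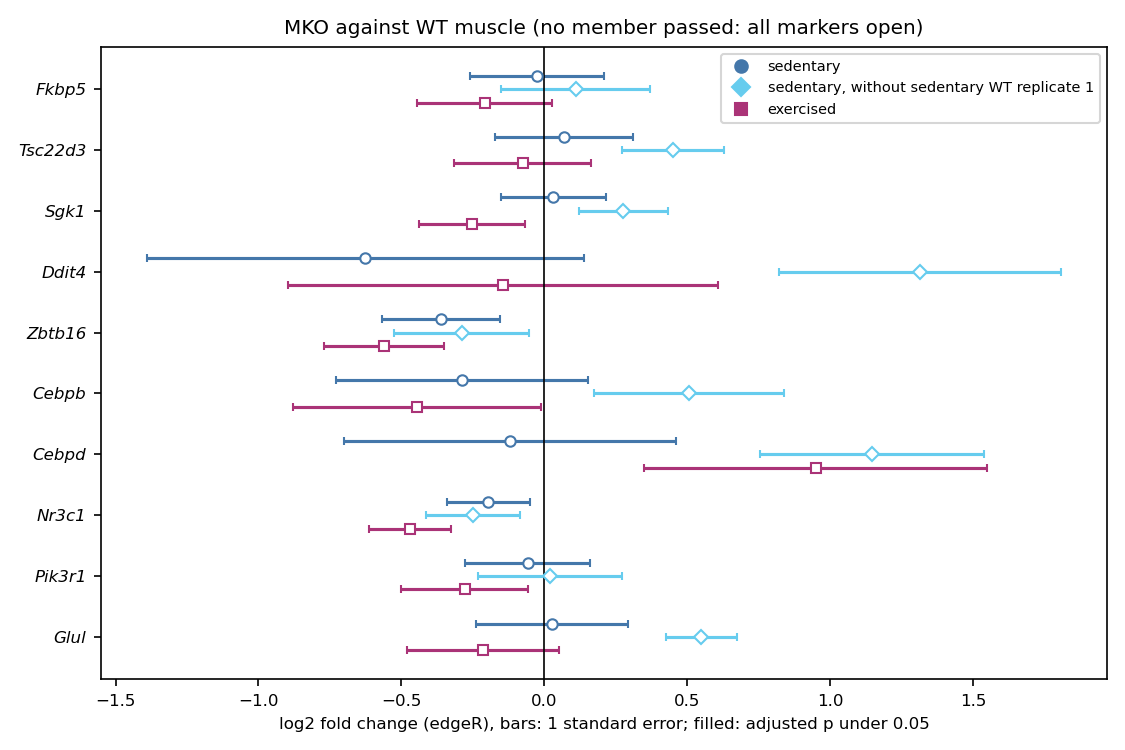
Log2 fold change of each member between MKO and WT muscle at rest (circles), at rest without sedentary WT replicate 1 (diamonds) and after running (squares), with bars of 1 standard error. No marker is filled, since no member passed an adjusted p of 0.05; Fkbp5, Ddit4, Cebpb, Cebpd and Pik3r1 change sign at rest when that library is left out.

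The running responses of the genotypes were also compared directly. No gene of 14486 passed edgeR's test of the difference, 534 had an unadjusted p under 0.05, and DESeq2 called 3 genes. No member had an unadjusted p under 0.05. The largest member difference (MKO minus WT) was that of Cebpd, 1.07 ± 0.83 (adjusted p = 0.983). With all libraries 2 of 10 member differences were positive. Without sedentary WT replicate 1 all 10 were negative, with a median of -0.42 beside 0.01 over all genes. In that fit 2 genes passed (0.0136%), neither of them a member. Glul had the smallest member p there, with -0.76 ± 0.17 (unadjusted p = 0.000834, adjusted p = 0.947). The library left out was singled out by the levels of these same genes, so the signs and p-values without it are no independent support. Running and genotype comparisons share libraries, so these values are not independent of those above.

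Sedentary WT replicate 1 set the WT running calls of Ddit4, Cebpb, Glul and Tsc22d3, which passed only without it. It was the highest of the 6 sedentary libraries for 7 of 10 members, Tsc22d3, Sgk1, Ddit4, Zbtb16, Cebpb, Cebpd and Glul, whereas it was highest for 14.2% of all tested genes. Set against the mean of the other sedentary WT libraries, 6 of 10 members were at least 1.5 times higher in it, where 3.6% of all genes were. The ratios were 9.54 for Ddit4, 5.22 for Cebpd, 3.20 for Cebpb, 2.31 for Glul, 1.91 for Tsc22d3 and 1.56 for Sgk1. They were 1.29 for Fkbp5 and 0.89 for the receptor gene Nr3c1. Ranked among the 6397 genes with a mean of at least 10 CPM by their ratio to the highest of the other 5 sedentary libraries, Ddit4 was first, Cebpd was at rank 8, Cebpb at rank 9 and Glul at rank 25. Fkbp5 and Nr3c1 were at ranks 4056 and 4247. Fkbp5 was higher there (88.2 CPM) than in the other sedentary WT libraries (66.6 and 69.8 CPM), but below sedentary MKO replicate 3 (102 CPM). Since the library was singled out by the levels of these same genes, these counts and ranks describe it and are no independent support.

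Genes outside the set that glucocorticoids are known to induce shared part of this pattern. Of 29 such genes on a list made for this purpose, 13 were highest in sedentary WT replicate 1 among the sedentary libraries, and 10 were at least 1.5 times the mean of the other sedentary WT libraries. Foxo1, which drives muscle atrophy genes when insulin signals are low, was at 70.2 CPM there and at most 25.4 CPM in the other sedentary libraries. Trim63, the atrophy ubiquitin ligase MuRF1, was at 922 CPM against at most 398 CPM. Klf15, a fasting and glucocorticoid regulator of amino acid breakdown, was at 80.9 CPM against at most 47.2 CPM, and the clock gene Per1 at 75.3 CPM against at most 46.5 CPM. Not all followed: Angptl4, a fasting-induced inhibitor of lipoprotein lipase, was at 0.44 times the mean of the other sedentary WT libraries, and the metallothioneins Mt1 and Mt2 were highest in sedentary MKO replicate 3. These genes were named after their values were seen. All 11 cell type marker sums of sedentary WT replicate 1 lay within the range of the other 5 sedentary libraries, as did its share of counts from the mitochondrial genome, 22.1% against 16.9% to 24.3%. The sources used here give neither the hour of sampling nor the feeding state of each animal.

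**Figure D4:**
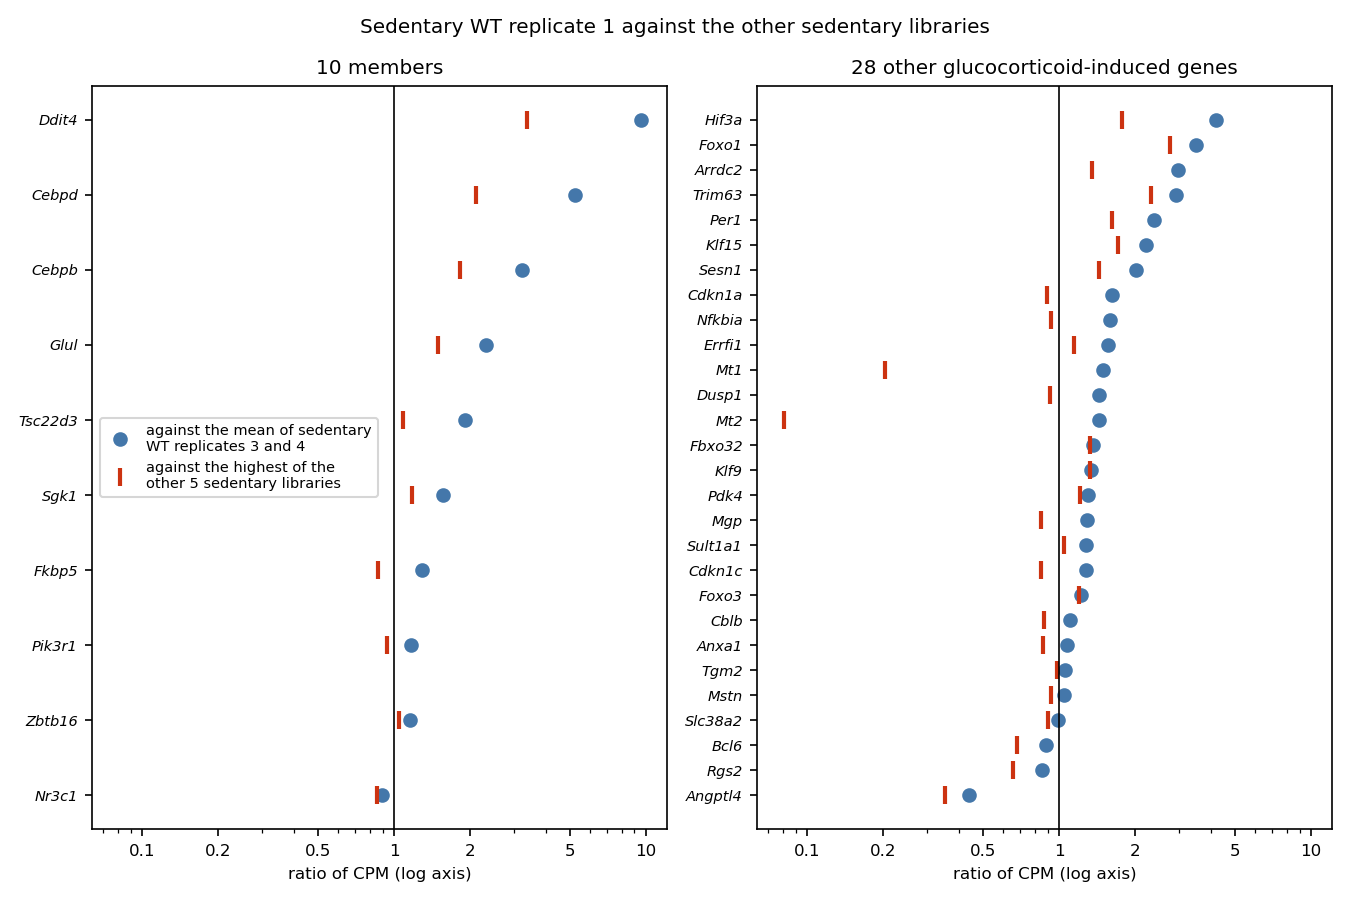
Level in sedentary WT replicate 1 as a ratio (log axis) to the mean of sedentary WT replicates 3 and 4 (dots) and to the highest of the other 5 sedentary libraries (bars), for the 10 members and for 28 of the 29 other glucocorticoid-induced genes; Lcn2, at 0 in that library, is not drawn. Ddit4 has the highest ratios, and Foxo1, Trim63, Per1 and Klf15 also lie right of 1 on both measures.

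The members also differed in how far libraries of 1 group lay apart. Within-group standard deviations of log2 CPM were larger at rest than after running for 7 of 10 members and for 45.3% of all tested genes. The median over members was 0.43 at rest and 0.25 after running, beside 0.18 and 0.19 over all genes. For Ddit4 the standard deviation was 1.76 at rest and 0.17 after running, and for Cebpd 1.07 and 0.54. For Glul it was 0.52 and 0.08, and for Tsc22d3 0.47 and 0.05, so that both were tighter than the typical gene after running. Nr3c1 was the reverse, at 0.09 at rest and 0.25 after running. These standard deviations pool both genotypes, include sedentary WT replicate 1 and carry no test. Within MKO muscle Cebpd went the other way, with 0.19 at rest and 0.77 after running, as did Sgk1 with 0.13 and 0.28. Ddit4 (0.22 and 0.18) and Glul (0.07 and 0.05) hardly differed there, against 2.49 and 0.73 in the sedentary WT group. Tsc22d3 (0.37 and 0.04), Fkbp5 (0.52 and 0.22), Zbtb16 and Pik3r1 were wider at rest in MKO muscle.

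The genes around the receptor were followed from lists of partners, enzymes and targets. Of 12 genes for chaperones and co-chaperones of the receptor, 4 rose with running in WT and 3 in MKO muscle, beside 4.14% and 2.29% of all genes, and none fell. Hsp90aa1, which encodes a heat-shock chaperone of the receptor, rose from 12.4 ± 1.1 to 41.5 ± 8.0 CPM in WT (SD, n = 3). Its log2 change in edgeR's fit was 1.75 ± 0.19 (adjusted p = 0.000175) in WT and 1.39 ± 0.18 (adjusted p = 0.00163) in MKO muscle. Dnajb1, which encodes an HSP40 protein, rose by 1.91 ± 0.24 and 1.43 ± 0.25, and Hspa8, the constitutive HSP70, by 0.42 ± 0.11 and 0.47 ± 0.11. Hspa4 rose in WT muscle by 0.36 ± 0.08. Without sedentary WT replicate 1 the WT count was 2, Hsp90aa1 and Dnajb1. Among coregulators of the receptor, the corepressor gene Nrip1 rose in WT muscle by 0.98 ± 0.23.

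Of 6 tested genes for steroid metabolism and related receptors, Hsd11b1, which regenerates active hormone inside cells, was the 1 that passed within a genotype, and in the average of both genotypes H6pd, which supplies its cofactor, fell as well. Hsd11b1 fell by 0.86 on the log2 scale in WT (SE 0.20, adjusted p = 0.0171) and by 1.12 in MKO muscle (SE 0.20, adjusted p = 0.00741), from 10.3 and 10.5 CPM to 5.67 and 4.79 CPM. The fibro-adipogenic markers, for cells in which this enzyme is known to be strong, fell as well, as given above, and their part was not tested.

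The 29 other glucocorticoid-induced genes changed in both directions with running. In WT muscle 9 rose and 5 fell (14 of 29, beside 8.24% of all genes), and in MKO muscle 5 rose and 3 fell (8 of 29, beside 4.05%). Pdk4, which shuts glucose oxidation at pyruvate dehydrogenase during fasting, fell from 1409 ± 238 to 215 ± 75.0 CPM in WT (SD, n = 3) and from 1083 ± 189 to 336 ± 87.3 CPM in MKO muscle, log2 changes of -2.71 ± 0.27 and -1.69 ± 0.26 in edgeR's fit. Tgm2, a transglutaminase, rose by 0.92 ± 0.10 and 0.59 ± 0.10. The cell cycle inhibitor gene Cdkn1a rose by 1.69 ± 0.23 and 1.12 ± 0.23, and Per1 by 1.94 ± 0.31 and 1.55 ± 0.31. In MKO muscle Sult1a1, a sulfotransferase, fell by 0.94 (SE 0.15), as it did by 0.74 in WT. Without sedentary WT replicate 1 the WT counts were 10 and 5, Trim63 being the gene gained. Several of these genes, such as Per1 and Pdk4, are also known to respond to contraction, cAMP or insulin.

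**Figure D5:**
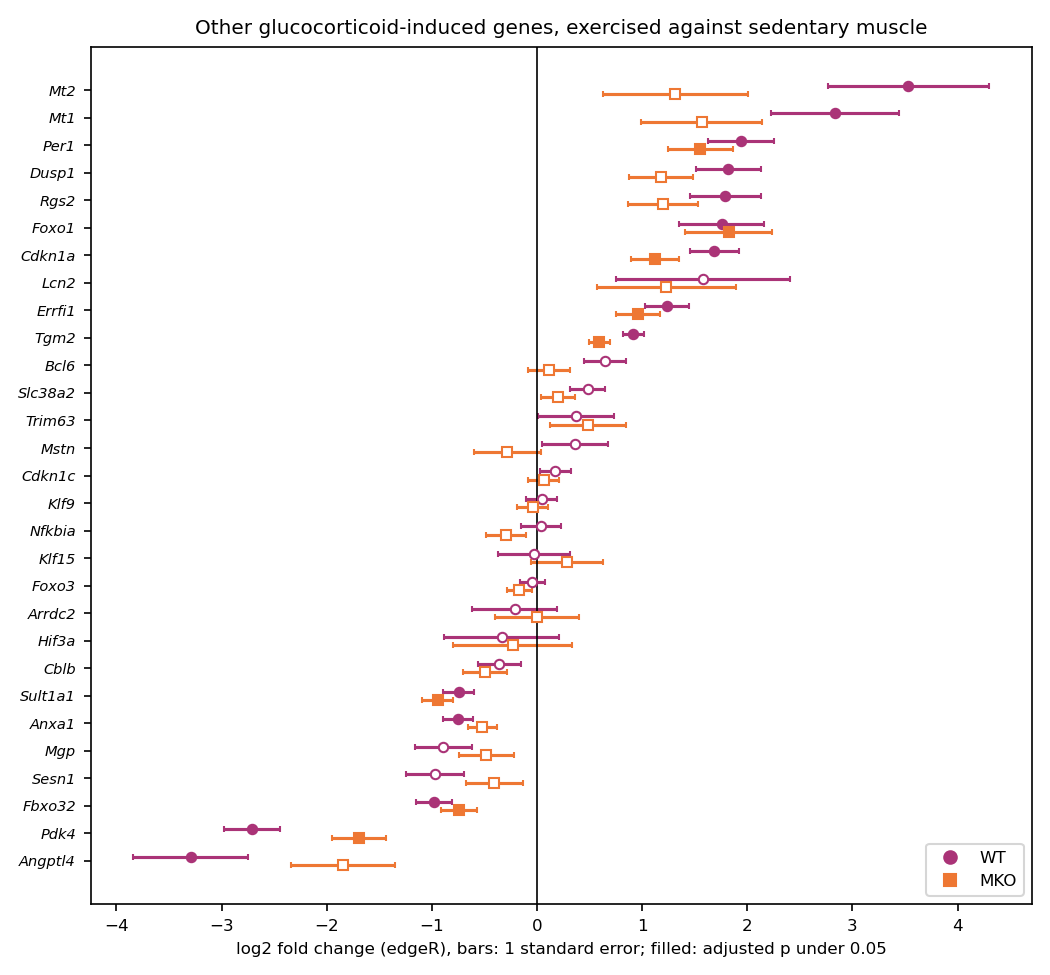
Log2 fold change of the 29 other glucocorticoid-induced genes between exercised and sedentary muscle in WT (circles) and MKO (squares), with bars of 1 standard error; filled markers have an adjusted p under 0.05. They run from Mt2 at the top to Angptl4 at the bottom, with 9 filled circles right of 0 and 5 left of it.

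Few relatives and pathway partners of the members passed. None of 4 tested C/EBP genes and none of 6 tested relatives of Sgk1 and Tsc22d3 passed with running in either genotype. Of 15 genes for PI3 kinase subunits and insulin signalling, Irs2, an insulin receptor adaptor, rose in WT (2.67 ± 0.45) and MKO muscle (1.81 ± 0.45), and Pik3ip1, an inhibitor of PI3 kinase, changed by -1.26 ± 0.17 and -0.91 ± 0.17. Pik3r3, a regulatory subunit like Pik3r1, rose in WT muscle by 0.81 ± 0.19, a call that was absent without sedentary WT replicate 1. Of 12 genes of mTORC1 and its brakes, Ddit4l, the paralogue of Ddit4, changed in WT muscle by -0.59 ± 0.16 (adjusted p = 0.0479), opposite in sign to Ddit4. Of 11 tested genes for glutamine metabolism and transport, Slc7a5, the exchanger that imports leucine for glutamine, rose from 1.91 ± 0.56 to 11.7 ± 0.88 CPM in WT (SD, n = 3), by 2.60 ± 0.23 in edgeR's fit, and by 1.24 ± 0.23 in MKO muscle. None of the genes on these lists passed between genotypes in either state.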

How the data were processed

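Raw counts per Ensembl gene, as deposited by the authors, were used for 12 libraries of mouse gastrocnemius muscle; the labels' protocols speak of 18 libraries, made from total RNA and sequenced by BGI on DNBSEQ. One misspelt column name was taken as exercised MKO replicate 4. Among the tools in the submitters' processing notes are HISAT2 2.2.1, StringTie 2.1.4 and SAMtools 1.9, beside the builds GRCm38.p6 and mm10. How reads were counted, by strand or not, and with which annotation, the sources used here do not say. Symbols, coordinates and exon lengths came from GENCODE M21 (GRCm38.p6), which named 42462 of 43432 identifiers; the other 970 held 0.0915% of counts.

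In R 4.3.3, edgeR 4.0.16 was run on these counts: filterByExpr (minimum count 10, minimum total 15) kept 14486 genes, TMM factors were 0.928 to 1.15, and 1 quasi-likelihood model (group means, 8 residual degrees of freedom) gave all comparisons. The threshold was a p of 0.05 after Benjamini-Hochberg adjustment over all tested genes; SE came from the F statistic, and the typical gene varied by 15.3% between replicates (biological coefficient of variation). Levels are CPM, counts scaled to library size with TMM factors. In counts simulated for exercised against sedentary WT over 14486 genes, 69% of 2-fold and 92% of 4-fold changes were recovered, with 13 false calls.

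The members, the lists of related genes and the cell type markers were chosen with earlier results of these data known. Of each list, at most 4 passing genes by smallest p were named (1 gene is not reported here), all 10 members were described, and the genes named for sedentary WT replicate 1 were picked by their values. Alternatives were DESeq2 1.42.0, limma-voom (limma 3.58.1), other scalings and filters, a fit of the compared groups alone, a block for the replicate number, and leaving out each library. The comparisons averaged over genotype or state were added after the data were seen.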

Additional observations from a re-analysis of the deposited data

How the results depend on the processing

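For single members, 990 alternative values were computed: 893 kept direction and call, 19 gained a call, 16 lost it, no called value changed sign, and 62 uncalled values did. With the replicate number as a block, the members passing with running were 2 in WT (Nr3c1 and Zbtb16) and 1 in MKO muscle (Zbtb16), and the genes passing were 602 of the main 1193 in WT, 361 of 586 in MKO, 0 for genotype at rest and 2 after running. Same-numbered libraries had correlations of -0.15 to 0.08 in their deviations from the group means. No pairing by number was seen, though a weak one could be missed with 3 libraries per group. In MKO muscle, 1 member passed with total counts alone (Zbtb16), 2 with the compared groups alone (Ddit4, Nr3c1) and 1 with DESeq2 (Nr3c1). Leaving out 1 library gave 1 to 5 members passing in WT, 1 to 5 for the average of genotypes, and 316 to 503 genes in MKO muscle. Without sedentary WT replicate 1, which was singled out by the members' levels, the 5 in WT stood beside 6.39% of all genes. The share of all genes for the average is not given here. For genotype at rest (main 1 gene), the compared groups alone and DESeq2 gave 2 genes, limma-voom 3, and leaving out 1 library 1 to 3. After running (main 5), no filter gave 2 genes, DESeq2 119, and leaving out 1 library 2 to 108. For the difference of responses (main 0), total counts alone gave 1 gene, DESeq2 3, limma-voom 4, and leaving out 1 library 0 to 3. For genotype averaged over states (main 2), leaving out 1 library gave 2 to 163; the highest counts after running and in this average came without exercised MKO replicate 2. Total counts alone moved the median of all genes by -0.10 in WT and -0.15 in MKO running. The cause of these shifts was not tested. Every member had at least 98 counts in every library. The standard error of Ddit4 in WT running was 0.77 on the log2 scale with all libraries and 0.53 without sedentary WT replicate 1.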
